A study of Mus musculus with 33 samples.

Results

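The genes described here carry out base excision repair after a DNA glycosylase has removed a damaged base. They are Apex1, Apex2, Polb, Lig1, Lig3, Xrcc1, Parp1, Fen1 and Aptx. These 9 genes were chosen by name, as the known enzymes and scaffolds of the later steps, out of 37991 gene identifiers counted in each of 33 RNA-seq libraries. All 9 passed the filter on low counts and were tested in every comparison. E14TG2a, an established line of mouse embryonic stem cells, had been sampled at 3 stages. These were undifferentiated mESCs kept with LIF, embryoid bodies (EBs) harvested on day 8, and EBs harvested on the same day that had received 5 µM retinoic acid (RA) during the later part of the culture (EBs + RA). EBs and EBs + RA of a clone came from 1 culture that was divided before RA was given. At each stage there were 3 control clones (#1, #4 and #7, transfected with empty pX330, the plasmid that carries Cas9), 3 Neil1-mutant clones (#7, #9 and #11), 3 Neil2-mutant clones (#1, #11 and #14) and 1 Apex1-mutant clone (#46) in technical duplicates. All lines had passed through Cas9 transfection, puromycin selection and colony picking. The Apex1 mutant was therefore 1 clone, and the spread between Apex1-mutant clones could not be measured. Its tests used a spread per gene estimated from control clones and duplicates together, or from all 33 libraries in the interactions.

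Base excision repair starts when a glycosylase such as NEIL1 or NEIL2 removes an oxidised base. APEX1, the main AP endonuclease, cuts the DNA backbone at the resulting abasic site, and APEX2 is a related nuclease with weaker activity at such sites. DNA polymerase beta, encoded by Polb, fills the short gap, and LIG3 seals it on the scaffold protein XRCC1. In the long-patch branch FEN1 cuts off a displaced flap and LIG1, the ligase of DNA replication, seals the nick. PARP1 senses strand breaks and recruits XRCC1, and APTX, aprataxin, removes adenylate groups that an abortive ligation leaves on DNA ends. NEIL glycosylases can also cut the backbone themselves, so part of the repair they start does not need APEX1.

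The Apex1 mutant was made with a pair of guide RNAs, shown here because their place in the gene decides what an Apex1 count can tell. The sequences below are the guides followed by the adjacent genomic bases, with the PAM that Cas9 needs in capitals, read 5′ to 3′ on the plus strand.
mmApex1_D209_1: tgcccgctaaaagtctcttaTGG
mmApex1_D209_2: aagatccggtccaaggctctTGG
The first guide matched NCBIM37 at chr14:51546001-51546020 in exon 4 of the transcript Apex1-001, and the second at chr14:51546586-51546605 in exon 5. Predicted cuts next to the PAMs lie 585 bases apart, and the segment between them holds 483 exon bases of Apex1. All 483 of these bases are also exon of Tmem55b, which encodes a phosphatidylinositol phosphatase and runs on the opposite strand. The full 585 bases between the predicted cuts are exon of Tmem55b. Reads that could not be given to a single gene were set aside as ambiguous (1.89% to 2.88% of the reads that each library lists), and the library kit did not mark strand. Of the 1422 exon bases of Apex1, 877 are shared with Tmem55b and 545 are not. Exons 1 to 3, which hold the countable bases of Apex1-001, lie upstream of both guides. An Apex1 count is thus a measure of the first part of the transcript and not of the deletion.

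**Figure D1:**
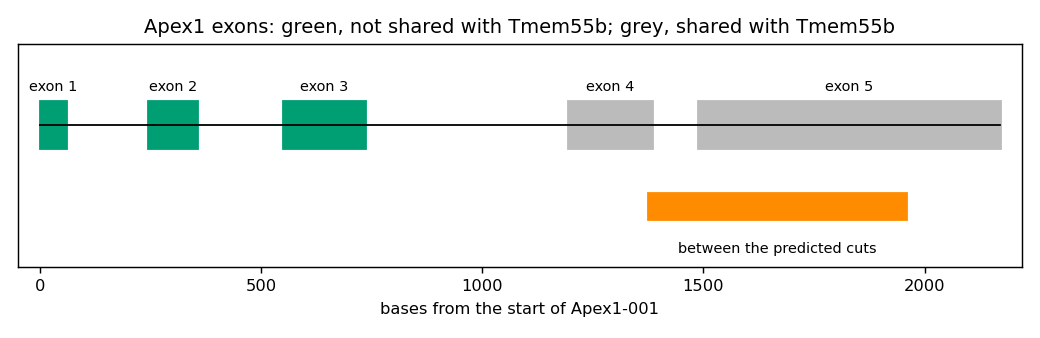
Exons of the transcript Apex1-001 by distance in bases from its start. Exons 1 to 3 (green) are free of other genes, exons 4 and 5 (grey) are covered by Tmem55b, and the 585 bases between the predicted cuts (orange) fall inside the covered part.

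Each library held between 21523742 and 48350904 reads counted on genes, with a median of 26720028. In all 30 pairs of libraries within a group, the duplicates included, the spread exceeded counting noise. All 10 pluripotency markers examined, among them Pou5f1 and Nanog, were at 1 CPM or more in every group, and their summed level was 7010 to 8490 CPM (counts scaled to library size, with TMM factors) in control mESCs, 3640 to 4290 in control EBs and 263 to 340 in control EBs + RA. Of 9 measured neural markers, 5 reached 1 CPM in control mESCs, 4 in control EBs and 9 in control EBs + RA, and their summed level was 432 to 472, 137 to 152 and 320 to 541 CPM, so that the sum in EBs + RA overlapped with that in mESCs. In mESCs, Neil1 clone #11 had no counted gene on chromosome X beyond position 58329243 (NCBIM37), and Apex2 lies beyond it at chrX:146954062-147024411. The same clone had 995137 counts on distal chromosome X in EBs and 600891 in EBs + RA, so the lack was seen in its mESC library only. Fits of Apex2 that include this library are given with and without it, from a fit of all other libraries chosen after the data were seen. Counts on distal chromosome X were also uneven between genotypes. Control mESCs had 619546 to 643589, Neil1 clones #7 and #9 929286 and 883404, and Neil2 mESCs 708288 to 1186661. The mESC libraries of these 3 genotypes held 24836041 to 32503071 counts on genes. In EBs, control clones #4 and #7 had 676049 and 715968, Neil1 clones 776633 to 995137 and Neil2 clones 809917 to 987512. These EB libraries held 21758303 to 30969043 counts on genes. Control clone #1 had 1249835 in a deeper EB library of 48350904. In EBs + RA controls had 636217 to 739615, Neil1 600891 to 982756 and Neil2 664534 to 928415. Those libraries held 24114162 to 29133599 counts on genes. The part of these differences in the values of genes there, such as Apex2, was not tested. Neil1 ranged from 2.48 to 31.5 CPM in Neil1 mESCs against 7.62 to 9.85 in control mESCs, and Neil2 from 5.5 to 9.54 CPM in Neil2 mESCs against 5.74 to 15.2. These totals include the undeleted parts of both genes and do not check the deletions.

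The members spanned a wide range of levels (the plot of every library). To compare genes, CPM was divided by the length in kb of the exon bases that no other gene shares. In control mESCs Parp1 was highest at 217 ± 18.7 CPM per kb (SD, n = 3), followed by Lig1 at 74.0 ± 11.7 and Xrcc1 at 41.8 ± 3.79. Apex1 (20.6 ± 10.4) and Polb (20.3 ± 2.11) overlapped, and so did Lig3 (9.87 ± 3.36) and Fen1 (5.28 ± 2.0). Aptx (3.05 ± 0.177) and Apex2 (1.6 ± 0.86) came last. All other neighbours in this order were separated in every control mESC library. In control EBs the order was the same with no neighbours overlapping. In control EBs + RA Lig1 (38.7 ± 1.5 CPM per kb) no longer stood apart from Xrcc1 (38.3 ± 3.14), and Apex1 overlapped with Polb and Fen1 with Apex2. These levels rest on very different counts. Parp1 had 3346 to 28050 counts per library and Fen1 only 15 to 104, because 383 of the 2422 Fen1 exon bases are free of other annotated genes. Fen1 values are therefore the least certain of the set. The long annotated Apex2 gene (8310 unshared exon bases) lowers its value per kb.

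**Figure D2:**
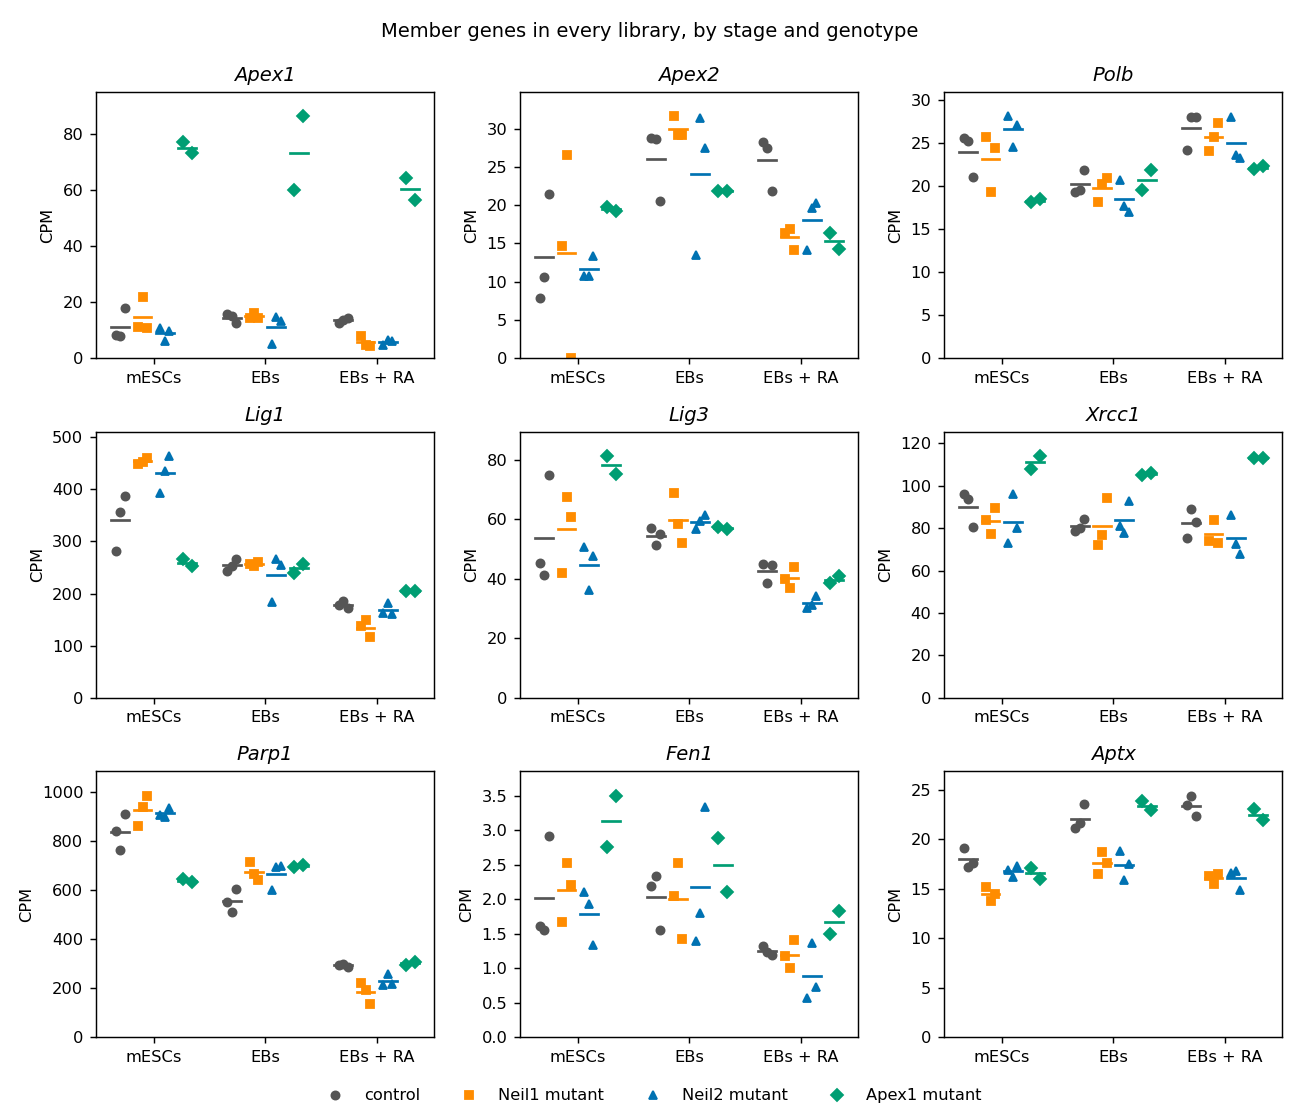
CPM of the 9 genes (vertical axes, each from 0) in all 33 libraries at 3 stages (horizontal axes), where points are libraries, horizontal bars group means, and colours and shapes genotypes. Parp1 and Lig1 decline from mESCs to EBs + RA, Apex1 is highest in the Apex1-mutant libraries, and 1 Neil1 mESC library lies at 0 for Apex2.

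The change of the members with differentiation was first examined in the control clones, as the base against which the mutants are read. Differential expression (DE) required a log2 fold change of more than 0.5 in either direction together with an FDR under 0.1. Parp1 fell at each step. Control clones #1, #4 and #7 had 838, 764 and 907 CPM in mESCs, 549, 509 and 602 in EBs, and 294, 300 and 288 in EBs + RA. No library of a later stage reached the range of an earlier one. The log2 fold change was −0.60 (SE 0.11, FDR 0.00146) for EBs against mESCs, −0.93 (SE 0.11, FDR 4.78e-05) for EBs + RA against EBs, and −1.53 (SE 0.11, FDR 4.65e-07) for EBs + RA against mESCs. Parp1 (chr1:182499086-182531384, plus strand) shares no exon base with another gene.

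Lig1 followed with 282, 357 and 387 CPM in mESCs, 243, 253 and 266 in EBs, and 178, 186 and 173 in EBs + RA. It fell in EBs + RA against mESCs (log2 fold change −0.95, SE 0.13, FDR 4.8e-05) and against EBs (−0.52, SE 0.13, FDR 0.00608). The second value stood close to the fold limit, and it moved to −0.47 to −0.49 without clone #7 in EBs or without clone #1 or #7 in EBs + RA. For EBs against mESCs it was −0.43 (SE 0.13, FDR 0.0178), below the fold limit, and −0.56 without clone #1 in mESCs.

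Fen1 had 1.61, 1.55 and 2.91 CPM in mESCs, 2.19, 2.34 and 1.55 in EBs, and 1.32, 1.24 and 1.19 in EBs + RA. Its log2 fold change of −0.70 (SE 0.32) in EBs + RA passed narrowly against mESCs (FDR 0.0756) and against EBs (FDR 0.0947). Neither call held when the clone was added as a block (FDR 0.111 and 0.12), nor in most refits without 1 library, and without clone #7 in mESCs the value against mESCs was −0.35. All these values rest on at most 104 counts per library.

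Apex2 went the other way. It had 7.83, 10.6 and 21.4 CPM in mESCs, 28.8, 28.6 and 20.6 in EBs, and 28.3, 27.5 and 21.8 in EBs + RA. It rose in EBs (log2 fold change 0.97, SE 0.30, FDR 0.0245) and in EBs + RA (0.95, SE 0.30, FDR 0.0164) against mESCs. Clone #7 had nearly the same level at all stages, and the difference was carried by clones #1 and #4. Both calls were lost (FDR 0.285 and 0.235) when all 33 libraries shared 1 estimate of the spread, a fit that includes the library without counts on distal chromosome X. In the same fit without that library both held (0.98, FDR 0.00655, and 0.95, FDR 0.00433).

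Clone #7 also stood above the other controls in mESCs for Apex1 (17.8 against 8.2 and 7.76 CPM) and Lig3 (74.9 against 45.4 and 41.3 CPM). Neither gene was DE between stages in the control clones, and Apex1 had a log2 fold change of 0.36 (SE 0.28, FDR 0.33) in EBs against mESCs. Lig3 in EBs + RA against mESCs was at −0.35 (SE 0.19, FDR 0.127), and at −0.52 (FDR 0.0356) without clone #4 in mESCs. Without clone #7 in mESCs the Apex1 value was 0.86 (FDR 0.00212) in EBs and 0.76 (FDR 0.00218) in EBs + RA, so the call depends on 1 mESC library.

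Xrcc1, Polb and Aptx were not DE between stages in the control clones. Xrcc1 had log2 fold changes of −0.16 and −0.14 in EBs and EBs + RA against mESCs (SE 0.11 in both). Polb stood at 0.39 (SE 0.14, FDR 0.035) in EBs + RA against EBs, and Aptx at 0.36 (SE 0.13, FDR 0.026) in EBs + RA against mESCs. Both lay below the fold limit. In all, 2 of 9 members were DE in EBs against mESCs, where 38.5% of all tested genes were. The numbers were 4 of 9 against 60.3% in EBs + RA against mESCs and 3 of 9 against 43.1% in EBs + RA against EBs. The members were thus called no more often than genes in general.

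**Figure D3:**
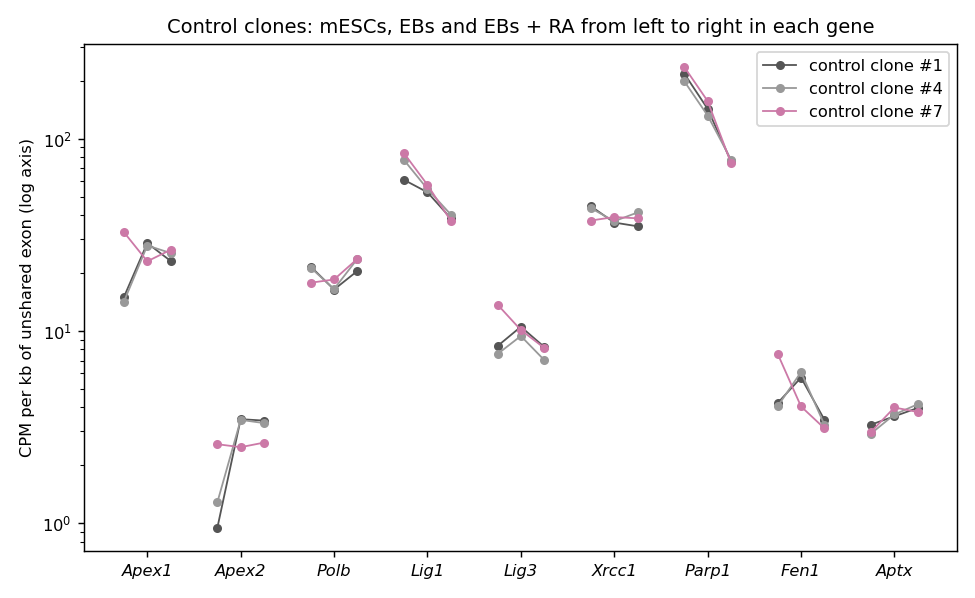
CPM per kb of unshared exon (log axis) in the 3 control clones, with mESCs, EBs and EBs + RA from left to right within each gene and lines joining the libraries of a clone. Parp1 and Lig1 decline in all 3 clones, and clone #7 departs from the others in mESCs for Apex1, Apex2, Lig3 and Fen1.

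Mutants were next compared with the control clones of the same stage, to ask whether loss of a glycosylase or of APEX1 goes along with other levels of the downstream enzymes. The 3 comparisons of a stage share their control libraries. In mESCs 0 of 9 members were DE in the Neil1 mutant, where 1.82% of 15569 genes were DE by edgeR, and 0 of 9 in the Neil2 mutant, where 1.83% were. An unadjusted p under 0.05 was reached by 2 members in Neil1 and 0 in Neil2, and DESeq2 also called 0 in both. The pair in Neil1 were Lig1 and Aptx, whose libraries did not overlap with the controls. Here and below, the shares of all genes under that p or without overlap are not given, so such counts are a description only. Lig1, which also lay above all controls in the Neil2 mutant (392, 436 and 464 CPM, log2 fold change 0.31, SE 0.15, FDR 0.361), had 448, 453 and 460 CPM in Neil1 clones #7, #9 and #11 against 282 to 387 in the controls (log2 fold change 0.39, SE 0.15, FDR 0.28). Aptx had 15.2, 13.8 and 14.5 CPM against 17.2 to 19.1 (−0.33, SE 0.14, FDR 0.325). Apex2 had 14.7, 26.6 and 0.0 CPM in the Neil1 clones, a log2 fold change of 0.04 with an SE of 1.62, and 0.63 (SE 0.45, FDR 0.589) without clone #11.

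In Neil1 and Neil2 EBs the members again stayed within the fold limit. No member was DE in Neil1 EBs, against 23.5% of all genes, or in Neil2 EBs, against 16.3%. In edgeR 2 members in Neil1 and 1 in Neil2 had an unadjusted p under 0.05, and DESeq2 called 0 in both. Parp1 was at 715, 665 and 639 CPM in Neil1 EBs and 600, 695 and 696 in Neil2 EBs against 509 to 602 in the controls. The Neil1 libraries all lay above the controls (log2 fold change 0.28, SE 0.09, FDR 0.0328, below the fold limit), and 1 Neil2 library lay inside their range (0.28, SE 0.13, FDR 0.208). Aptx was at 16.5, 18.7 and 17.6 CPM in Neil1 EBs and 18.8, 15.9 and 17.5 in Neil2 EBs, all under the control range of 21.1 to 23.5. Its log2 fold change was −0.33 in both (FDR 0.0606 and 0.182). Pluripotency markers summed to 5810 to 7330 CPM in Neil1 EBs and 5410 to 7220 in Neil2 EBs against 3640 to 4290 in the controls. The 9 markers of mesoderm, endothelium and blood summed to 88.1 to 115 and 65.8 to 100 CPM against 159 to 204. The 7 endoderm markers, at 330 to 502 and 116 to 519 CPM, overlapped with the controls at 229 to 440. The part of these markers in the differences of the members was not tested.

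Neil2 clone #1 differed from the other Neil2 EBs. It had 5.07 CPM of Apex1 against 14.8 and 13.1, 13.5 CPM of Apex2 against 31.4 and 27.5, and 183 CPM of Lig1 against 267 and 255. The group log2 fold changes of these genes, −0.38 (SE 0.35) for Apex1, −0.10 (SE 0.29) for Apex2 and −0.10 (SE 0.16) for Lig1, include this library and did not pass.

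In EBs + RA the DE members were the AP endonucleases and Aptx in both Neil mutants, and Parp1 in Neil1 only. In Neil1 EBs + RA 4 of 9 members were DE, all lower than in the controls, where 41.1% of all genes were DE and 19.9% were lower. In Neil2 EBs + RA 3 of 9 were DE, again all lower, against 34.9% of all genes DE and 16.6% lower. The shares of called members lay near those of all genes. The median log2 fold change of the 9 members was −0.40 in Neil1 and −0.41 in Neil2, and that of all tested genes was 0.00 in both.

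Apex1 showed the largest difference. The level in Neil1 clones #7, #9 and #11 was 7.93, 4.79 and 4.44 CPM, Neil2 clones #1, #11 and #14 had 4.76, 6.63 and 6.04, and the control clones had 12.6, 13.8 and 14.4. All 6 mutant libraries lay below all controls. The log2 fold change was −1.24 (SE 0.26, FDR 0.00838) in Neil1 and −1.21 (SE 0.19, FDR 0.00283) in Neil2, which is 0.423 and 0.433 of the control level. Both calls held under every alternative run, without each library in turn included. The neighbour Tmem55b, whose exons cover the end of Apex1, was at 0.21 (SE 0.14, FDR 0.273) and 0.12 (SE 0.12, FDR 0.478).

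Apex2 had 16.4, 16.9 and 14.2 CPM in Neil1 and 14.2, 19.6 and 20.3 in Neil2 against 28.3, 27.5 and 21.8 in the controls, with no overlap. It fell by 0.70 on the log2 scale in Neil1 (SE 0.17, FDR 0.0158) and by 0.50 in Neil2 (SE 0.18, FDR 0.0662). The Neil2 value lay at the fold limit. It was −0.49 with DESeq2 and with RLE scaling, −0.43 and −0.46 without control clone #1 and #4, and −0.36 without Neil2 clone #1, and was then no longer DE. With all 33 libraries in 1 fit, the library without distal X counts among them, neither Apex2 call held (FDR 0.424 and 0.59). Without that library the Neil1 call held (−0.70, FDR 0.0421) and the Neil2 call did not (−0.51, FDR 0.156).

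Parp1 fell in Neil1 EBs + RA. Its level was 221, 194 and 135 CPM for the Neil1 clones #7, #9 and #11, 212, 256 and 218 in the Neil2 clones and 288 to 300 in the controls. The log2 fold change was −0.67 (SE 0.18, FDR 0.0236) in Neil1, and −0.49 (FDR 0.0188) without the lowest library, clone #11, which is just inside the fold limit. In Neil2 it was −0.34 (SE 0.11, FDR 0.0493), below the fold limit, although no library overlapped with the controls.

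Aptx fell in both mutants. Neil1 had 16.3, 15.5 and 16.5 CPM and Neil2 16.6, 16.8 and 14.9, against 23.4, 24.4 and 22.3 in the controls. The log2 fold change was −0.52 in Neil1 (SE 0.15, FDR 0.0248) and −0.52 in Neil2 (SE 0.14, FDR 0.022). The Neil1 call was lost on the FDR without control clone #1 (−0.53, FDR 0.1) and on the fold limit without Neil1 clone #9 (−0.50, FDR 0.0849). The Neil2 call was lost on the fold limit without control clone #4 (−0.49) or Neil2 clone #14 (−0.46). As given above, Aptx libraries of both mutants also lay below the controls in EBs, and those of Neil1 in mESCs. The difference between EBs + RA and EBs was −0.20 in Neil1 (SE 0.15, FDR 0.335) and −0.20 in Neil2 (SE 0.15, FDR 0.447), and did not pass the interaction test.

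None of Polb, Xrcc1, the ligases or Fen1 was DE in Neil1 or Neil2 EBs + RA. Polb had log2 fold changes of −0.05 and −0.08 (SE 0.14 in both), and its libraries overlapped with the controls in both mutants. Xrcc1 was at −0.09 and −0.11 (SE 0.13 in both). Lig1 had 137, 150 and 117 CPM in Neil1 against 173 to 186 in the controls (−0.40, SE 0.14, FDR 0.051, below the fold limit) and 162, 182 and 160 in Neil2 (−0.07, SE 0.11). Lig3 had 30.2, 31.1 and 34.1 CPM in Neil2 against 38.5 to 45.0 (−0.40, SE 0.12, FDR 0.0325, below the fold limit) and 40.1, 36.9 and 44.0 in Neil1 (−0.07, SE 0.14). Fen1 was at −0.06 (SE 0.29) in Neil1 and −0.47 (SE 0.38) in Neil2.

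The mutant EBs + RA also differed from the controls in cell type markers. Neural markers (9 measured of 10, none at 0 in these groups) summed to 48.1 to 64.0 CPM in Neil1 and 53.5 to 67.7 in Neil2 against 320 to 541 in the controls. Pluripotency markers summed to 514 to 1000 CPM in Neil1 and 598 to 1840 in Neil2 against 263 to 340. The part of this difference in the values of the repair genes was not tested. In bulk RNA, fewer cells of a type and less RNA per cell cannot be told apart.

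**Figure D4:**
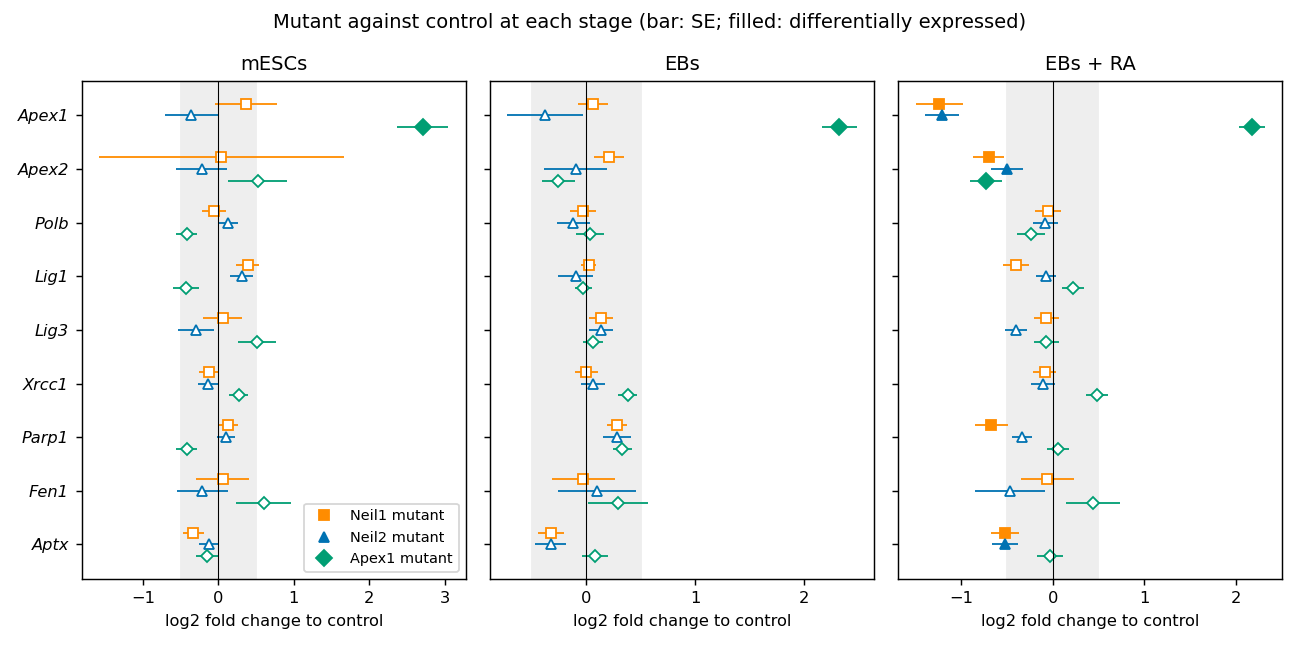
Log2 fold change of each gene (rows) in the Neil1, Neil2 and Apex1 mutants against the controls of the same stage (panels), with SE as bars, the fold limit of 0.5 as a grey band and DE values filled. In mESCs and EBs only Apex1 in the Apex1 mutant is filled, and in EBs + RA Apex1, Apex2, Parp1 and Aptx are filled to the left in 1 or more mutants, and Apex1 to the right in the Apex1 mutant.

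Whether a mutant differed from the controls by another amount after RA was tested with an interaction term over all 33 libraries. For Neil1, EBs + RA against EBs, 3 of 9 members passed an FDR below 0.1, as did 30.5% of all genes. Parp1 stood above the controls in Neil1 EBs and below them in Neil1 EBs + RA, a difference of −0.96 (SE 0.18, FDR 0.000256). The difference for Parp1 passed without each library in turn. Apex1 had −1.30 (SE 0.47, FDR 0.0476), which was −1.19 (FDR 0.104) without control clone #7 in EBs, −1.15 (FDR 0.122) without Neil1 clone #11 in EBs + RA and −1.28 (FDR 0.108) with no filter on low counts. Lig1 had −0.42 (SE 0.17, FDR 0.0791) and lost the call in 9 of 12 refits without 1 library. Apex2 was at −0.91 (SE 0.97, FDR 0.539), at −0.89 (FDR 0.0134) when only the control and Neil1 libraries of these stages were fitted, and at −0.89 (SE 0.39, FDR 0.0972) when the library without distal X counts was left out. The Apex2 result of this interaction thus depends on that library. For Neil2, 1 of 9 members passed, against 17.4% of all genes. This was again Parp1, at −0.62 (SE 0.18, FDR 0.0177), with Apex1 at −0.82 (SE 0.47, FDR 0.287) and at −1.18 (FDR 0.0622) without Neil2 clone #1 in EBs.

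For EBs against mESCs no member passed in Neil1 (9.42% of all genes) or Neil2 (10.6%). An unadjusted p under 0.05 was reached by Lig1 in both (−0.39, FDR 0.209, and −0.44, FDR 0.129), and DESeq2 called 0 in both. With the clone as a block Lig1 in Neil2 had −0.46 (FDR 0.0928). It also passed without control clone #7 in mESCs (−0.56, FDR 0.0524 in Neil2 and −0.51, FDR 0.0849 in Neil1), and in Neil2 without clone #11 in EBs (−0.56, FDR 0.0551) or clone #1 in mESCs (−0.52, FDR 0.0936). The SE of Apex2 was 0.97 to 1.09 over all 6 interactions, and 0.39 to 0.44 without Neil1 clone #11 in mESCs. Without it the Apex2 value for EBs against mESCs in Neil1 was −0.44 (SE 0.41) in place of 0.16 (SE 0.98).

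In the Apex1 mutant the Apex1 count rose at every stage. The duplicates had 77.2 and 73.0 CPM in mESCs, 60.0 and 86.2 in EBs, and 64.2 and 56.5 in EBs + RA, against 7.76 to 17.8, 12.5 to 15.6 and 12.6 to 14.4 in the controls. The log2 fold change was 2.71 (SE 0.34, FDR 0.0189) in mESCs, 2.33 (SE 0.16, FDR 1.49e-05) in EBs and 2.18 (SE 0.14, FDR 0.000331) in EBs + RA, or 6.54, 5.04 and 4.53 times the control level. In mESCs the value was 2.67 and 2.74 without 1 or the other duplicate, but the FDR was then 0.209 and 0.203, with the lone library assumed to vary like the controls. As described above, these counts come from the exons upstream of the guides. They do not say how much intact Apex1 transcript was present, and the cause of the rise was not tested.

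The neighbours of Apex1 did not follow it. Of these, Tmem55b has exon between the predicted cuts, as given above, and the effect of the deletion on its count was not tested. Osgep, which encodes a tRNA-modifying enzyme, starts close to Apex1 on the opposite strand. The bases between the 2 starts are given here, from RefSeq on GRCm38.p6 (chr14:50924894-50924948, plus strand), because they show how near the genes lie, with 55 bases between their starts, of which 65.5% are G or C.
Apex1-Osgep: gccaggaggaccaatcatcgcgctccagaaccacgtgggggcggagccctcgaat
Osgep had 15.3 and 16.4 CPM in Apex1-mutant mESCs against 25.7 to 36.8 in the controls (log2 fold change −1.03, SE 0.18, FDR 0.0279), and Tmem55b had 20.5 and 25.5 against 36.4 to 40.6 (−0.77, SE 0.14, FDR 0.0317). Both fell in mESCs while the Apex1 count rose, and both calls were lost without control clone #4 (FDR 0.107 and 0.113) or without either duplicate. In EBs Osgep was at 0.21 (SE 0.13) and Tmem55b at −0.05 (SE 0.11). The difference between EBs and mESCs passed the interaction test for Osgep (1.22, SE 0.22, FDR 0.000776) and Tmem55b (0.69, SE 0.21, FDR 0.0361), the latter not without the first mESC or EB duplicate (FDR 0.196 and 0.172). In EBs + RA they were at 0.08 (SE 0.18) and −0.03 (SE 0.14).

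Of the other members, none was DE in Apex1-mutant mESCs or EBs. In mESCs 1 of 9 members was DE, Apex1 itself, against 16.9% of all genes. Parp1 had 644 and 632 CPM against 764 to 907 (log2 fold change −0.42, SE 0.14, FDR 0.0934), Polb 18.1 and 18.5 against 21.1 to 25.6 (−0.42, SE 0.14, FDR 0.0977), and Lig1 266 and 253 against 282 to 387 (−0.43, SE 0.17, FDR 0.144). All lay below the fold limit. Without control clone #7 in mESCs, Lig3 (0.83, FDR 2e-06), Apex2 (1.05, FDR 2.55e-05) and Fen1 (0.95, FDR 0.00381) became DE as well. In that control library the 3 genes were at 74.9, 21.4 and 2.91 CPM, and in the duplicates at 81.3 and 75.3, 19.8 and 19.2, and 2.76 and 3.5. Pluripotency markers summed to 5940 to 6020 CPM in these duplicates, under the 7010 to 8490 of the controls, and their part was not tested.

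In Apex1-mutant EBs 1 of 9 members was DE, against 25.8% of all genes, and in EBs + RA 2 of 9, against 24.8%. Xrcc1 was above all controls at each stage, with 108 and 114 CPM in mESCs, 105 and 106 in EBs and 113 and 113 in EBs + RA, against control ranges of 80.7 to 95.9, 78.8 to 84.4 and 75.5 to 89.0. Its log2 fold changes were 0.27 (SE 0.13, FDR 0.194), 0.38 (SE 0.09, FDR 0.00738) and 0.48 (SE 0.12, FDR 0.0305), all below the fold limit, and 0.54 (FDR 0.0471) in EBs + RA without control clone #4. Parp1 stood at 693 and 702 CPM in EBs against 509 to 602 (0.33, SE 0.09, FDR 0.0223, below the fold limit). Its change from mESCs to EBs differed from that of the controls by 0.72 (SE 0.20, FDR 0.0167). It was the member that passed this interaction, 1 of 9 against 18.4% of all genes. Apex2 had 16.3 and 14.3 CPM in EBs + RA against 21.8 to 28.3, and fell by 0.73 on the log2 scale (SE 0.18, FDR 0.0239). With 1 duplicate left out this call was lost (FDR 0.134 and 0.163), and likewise with all 33 libraries in 1 fit (FDR 0.548), but not in that fit without the library that lacks distal X counts (−0.76, FDR 0.0911). Pluripotency markers summed to 7250 to 7290 CPM in Apex1-mutant EBs and 1750 to 2370 in EBs + RA, and neural markers to 92.2 to 97.4 in EBs + RA. In Apex1-mutant EBs the 7 endoderm markers summed to 55.0 to 67.1 CPM against 229 to 440 in the controls. The 9 markers of mesoderm, endothelium and blood summed to 94.0 to 99.8 against 159 to 204, and they were also below the controls in Neil1 and Neil2 EBs. The part of these markers was not tested. Aptx had 23.0 and 21.9 CPM in EBs + RA, against 22.3 to 24.4 in the controls (−0.03, SE 0.14). For EBs + RA against EBs no member passed the interaction in the Apex1 mutant (10.1% of all genes), 0 had an unadjusted p under 0.05 in edgeR, and DESeq2 called 0.

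Other genes that act after the glycosylase were read from a list of 28, which holds end-processing enzymes, replicative and mitochondrial polymerases and their clamp loaders. In Neil1 EBs + RA 9 of 28 were lower and 2 higher, where 19.9% of all genes were lower and 21.2% higher. In Neil2 5 of 28 were lower and 2 higher, where 16.6% and 18.3% of all genes were, and in the Apex1 mutant 1 was lower and 3 higher, where 10.9% and 13.9% were. The medians of their log2 fold changes were −0.23, −0.17 and 0.05, with −0.02 over all genes in the Apex1 mutant. Hmgb1, a chromatin protein that assists long-patch repair, fell in Neil1 (−1.18, SE 0.20, FDR 0.00322) and Neil2 (−0.96, SE 0.15, FDR 0.00306). Polg, the polymerase of mitochondrial DNA, rose in both (1.21, SE 0.18, FDR 0.00212, and 0.83, SE 0.15, FDR 0.00496), while in control EBs + RA it was lower than in control EBs (−1.24, SE 0.12, FDR 9.69e-06). The interaction of Polg for EBs + RA against EBs passed in Neil1 (1.29, SE 0.22, FDR 0.000112) and in the Apex1 mutant (0.97, SE 0.25, FDR 0.0137), and it was 0.53 in Neil2 (SE 0.22, FDR 0.119). Parp3, a relative of Parp1, was lower in Neil1 and Neil2 EBs (−1.56, SE 0.29, and −1.58, SE 0.38) and EBs + RA (−1.49, SE 0.28, and −0.77, SE 0.22). Its level was low, at 1.27 to 2.72 CPM in Neil1 EBs and 0.837 to 2.34 in Neil2 EBs against 4.48 to 6.41 in control EBs. In the Apex1 mutant Tdp1, which clears adducts from DNA ends, rose in EBs (0.93, SE 0.09, FDR 6.79e-05) and EBs + RA (0.62, SE 0.12, FDR 0.00947). In Apex1-mutant mESCs Pold2 (−1.12, SE 0.12, FDR 0.014) and Pold1 (−0.87, SE 0.15, FDR 0.0279), subunits of DNA polymerase delta, fell. In these cells 2 of 28 were lower and 1 higher, beside 9.07% and 7.87% of all genes. Of this list 0 of 28 were DE in Neil1 or Neil2 mESCs, beside 1.82% and 1.83% of all genes.

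Since Lig1 and Fen1 also serve DNA replication, 25 replication genes were read in the same way. In the control clones 11 were lower and 0 higher in EBs + RA against mESCs, with a median log2 fold change of −0.50, beside 0.02 over all genes, of which 29.2% were lower and 31.1% higher. The most lowered were Ccne1 (−1.39, SE 0.19), Mcm10 (−1.26, SE 0.16) and Pola1 (−1.24, SE 0.14), a cyclin, a helicase factor and a polymerase subunit. In Neil1 EBs + RA 11 of 25 were lower and 0 higher than in the controls (median −0.48), beside 19.9% and 21.2% of all genes. In Neil2 5 of 25 were lower and 0 higher (median −0.28), beside 16.6% and 18.3%. Rrm1 and Rrm2, the subunits of ribonucleotide reductase, led with −1.27 (SE 0.19, FDR 0.00226) and −1.11 (SE 0.20, FDR 0.00458) in Neil1, and with −1.03 (SE 0.13, FDR 0.00116) and −0.94 (SE 0.21, FDR 0.0125) in Neil2. Of the 25, 14 passed the Neil1 interaction for EBs + RA against EBs, all with a negative difference, beside 14.1% of all genes with a passing negative difference. In Neil2 2 of 25 passed, both negative, beside 8.57% of all genes. In the Apex1 mutant 1 of 25 was DE in EBs + RA, Ccne2 (−0.95, SE 0.26, FDR 0.0352), beside 24.8% of all genes. In Neil1 and Neil2 EBs 1 of 25 was DE, Pola1, which was higher (1.26, SE 0.09, and 1.0, SE 0.21). Of all genes 10.4% and 8.65% were higher there. Pola1 lies on distal chromosome X, where counts were uneven between genotypes, and the part of this in its value was not tested.

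E2F motifs, which mark many replication genes, were searched on both strands of RefSeq promoter windows (GRCm38.p6, 250 bases before to 50 after a start) as TTTCCCGC, TTTGGCGC, TTTCGCGC or TTTGCCGC. Windows were at hand for 7 of the 9 members. Of 32851 windows 2.26% held a match, and of the members' 11 windows 1 did, a Lig1 window, shown because Lig1 is the replicative ligase of the set.
Lig1: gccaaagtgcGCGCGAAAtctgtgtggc
It lies at chr7:13278842-13278869 on the plus strand, and the match, in capitals, begins at base 27 after that start. The NRF1 motif was found in 0.971% of all windows and in none of the members'. A match is a description of the letters and says nothing of binding.

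Over the 33 libraries the gene most like Parp1 in log2 CPM was Mrps5 (Pearson r = 0.985), followed by Atp5a1 (0.981), and those most like Lig1 were Ttc25 (0.949) and Shmt2 (0.944). Apex1 was nearest to Ndufaf1 (0.927) and Ddx24 (0.924), and Lig3 to Celf1 (0.938) and Gabpb2 (0.925). Aptx was nearest to Cxcl12 (0.874) and Hey1 (0.87), Fen1 to Crkl (0.864) and Dph1 (0.86), Polb to 3830406C13Rik (0.852) and Ppp3cc (0.847), and Xrcc1 to Gm16197 (0.807) and Fars2 (0.778). Apex2 was nearest to Tceal8 (0.976) and Hccs (0.967), but without the library that lacks distal X counts these were at 0.779 and 0.735, and the nearest were Bzw1 (0.902) and Nfyc (0.886) over 32 libraries. These values were the highest among 14195 genes averaging 1 CPM or more, and the libraries share stages and genotypes, so they are a description only.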

How the data were processed

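RNA of the 33 libraries was isolated with an RNeasy kit and prepared with the TruSeq RNA kit v2. The authors aligned reads to NCBIM37 with TopHat 2.0.9 and Bowtie2 2.1.0 and counted them per gene with HTSeq 0.5.4. The deposited values are these raw counts, without normalization. The strand setting of the counting is not given in the sources used here.

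Counts were fitted as deposited with edgeR 4.0.16 (R 4.3.3, filterByExpr, TMM, robust quasi-likelihood test, Benjamini-Hochberg adjustment over all tested genes). Reads that met no annotated gene made up 5.86% to 8.85% of the reads that each library lists, and alignments that were not unique 11.4% to 19.9%. Both were left out, as were the ambiguous reads. Mutants were set against control clones at the same stage, stages were compared over the 9 control libraries, and interactions were fitted over all 33 libraries. Standard errors were taken from the fold change and the F statistic. Log2 CPM used a prior count of 2. Figures and tables were made with Python 3.11.15 and pandas 2.3.3. Gene models and shared exon bases come from GENCODE M1 on NCBIM37, which may differ from the annotation used for counting. The fitting was tested on simulated data.

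Named genes were the 9 members, the 2 neighbours of Apex1, up to 4 DE genes per list and comparison with the largest change, and the 2 genes most like each member. Members, lists and tests were chosen with earlier results of these data known. Alternatives were DESeq2 1.42.0, RLE scaling, no filter, 1 fit of all libraries (for interactions, the libraries of that mutant and its controls only), a replicate or clone block, leaving out each library, and, for Apex2 and chosen after seeing the data, all libraries but the Neil1 clone #11 mESC library in 1 fit. Clones pair the stages by design, and EBs and EBs + RA of a clone deviated together (r 0.167 to 0.483). Of the genotype comparisons, only EBs + RA of control and Neil1 met the rule for pairing by replicate number (r 0.22 to 0.295), and no call of a member changed there under the block.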

Additional observations from a re-analysis of the deposited data

Results flagged for a closer look

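The 5 values below are differences of a mutant's effect between 2 stages that passed an FDR below 0.1 in the interaction test (edgeR, all 33 libraries). For EBs + RA against EBs they were −1.3 for Apex1, −0.42 for Lig1 and −0.96 for Parp1 in the Neil1 mutant, and −0.62 for Parp1 in the Neil2 mutant, all on the log2 scale. For EBs against mESCs the value was 0.72 for Parp1 in the Apex1 mutant. Parp1 is the one gene of the set that passed in all 3 mutants, although not in the same pair of stages, and its differences passed under every alternative run. Groups held 2 or 3 libraries, so that no single library could be tested as an outlier within its group.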

How the results depend on the processing

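Of 18 counts of called members, 83 of 90 values under alternatives that used all libraries of a comparison stayed within 1.5 times the reported count. The 7 others were as follows. With all 33 libraries in 1 fit, 2 members in place of 1 were DE in Apex1-mutant mESCs, 1 in place of 2 in Apex1-mutant EBs + RA, and 1 in place of 2 in control EBs against mESCs. The replicate block raised the count in Apex1-mutant mESCs from 1 to 4, where equal numbers mark no shared culture, and the clone block raised the Neil2 interaction for EBs against mESCs from 0 to 1. The block changed no other count beyond 1.5 times, but Apex2 in Neil2 EBs + RA then had an FDR of 0.101. With no filter on low counts the Neil1 interaction for EBs + RA against EBs fell from 3 to 1, and with the libraries of control and Neil2 only the corresponding Neil2 count rose from 1 to 2. The cause was not tested. Leaving out 1 library gave 0 to 4 DE members in Apex1-mutant mESCs, 1 to 3 in Neil2 EBs + RA, 1 to 3 in Apex1-mutant EBs + RA and 1 to 2 in control EBs + RA against EBs. It gave 0 to 1 for the Neil1 and 0 to 1 for the Neil2 interaction of EBs against mESCs, 1 to 3 for that of Apex1, and 1 to 3 (Neil1) and 1 to 2 (Neil2) for EBs + RA against EBs. No called value of a member changed its sign. Of 152 values that were never called, 19 of 760 refits with all libraries and 135 of 1167 without 1 library had the other sign. Fen1 (15 to 104 counts) is limited by depth. A fit of all libraries but the one without distal X counts, chosen after the data were seen, ended 1 Apex2 call (Neil2 EBs + RA, −0.51) and added 1 (the Neil1 interaction for EBs + RA against EBs, −0.89).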

Other observations

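Among pairs of members, log2 CPM over the 33 libraries was most alike for Lig1 and Parp1 (Pearson r = 0.91) and for Lig3 and Fen1 (0.8). Polb ran opposite to Lig3 (−0.71) and Fen1 (−0.66). The libraries share stages and genotypes, and Fen1 rests on few counts, so these values are a description and were not tested.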
